A study of Homo sapiens with 12 samples.

Results

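The 32 genes described here encode the enzymes of cholesterol and fatty acid synthesis and the proteins that control them. They were chosen by name, not by measured values, from 23064 gene symbols in the RNAseq tables, though earlier results of these data were known. Each symbol was represented by the transcript with the most counts. The list holds 8 genes of the mevalonate branch, 11 of the sterol branch, 6 of SREBP control and sterol transport and 7 of fatty acid synthesis and desaturation. All 32 genes passed the filter on low counts in both cell lines.

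RNA was sequenced from CAL-29 and 5637 cells, 2 established human bladder carcinoma lines, 3 days after transfection with a control siRNA (siCtrl) or with an siRNA against KMT9α (siKMT9α), a lysine methyltransferase subunit encoded by N6AMT1. There were 3 libraries per siRNA and line, 12 in all. CAL-29 cells were grown in DMEM and received 50 nM siRNA with RNAiMAX, whereas 5637 cells were grown in RPMI and received 90 nM with DharmaFECT 3, so line, medium, reagent and dose cannot be told apart. Knockdown rests on a single siRNA sequence, called si270 in the count tables and taken here as siKMT9α#1, the siRNA that the study states for its transcriptome analysis. The labels do not say whether replicates were separate cultures, so p-values measure the spread between these libraries only.

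Cells build cholesterol from acetyl-CoA through mevalonate, squalene and lanosterol, and they build fatty acids from the same precursor through malonyl-CoA. Both routes are driven by the SREBP transcription factors, which are made as membrane proteins of the endoplasmic reticulum. When sterols are low, SCAP escorts SREBP to the Golgi for cleavage, and when sterols are high, the INSIG proteins hold SCAP back. Synthesis genes under shared SREBP control are known to rise and fall together when sterol supply changes.

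Total counts per library lay between 24479348.5 and 35151256.5. N6AMT1, the targeted gene, fell in both lines, with a log2 fold change of -2.00 ± 0.15 (SE, n = 3 per group) in CAL-29 and -2.23 ± 0.12 in 5637 cells. All 8 epithelial markers were above the filter in both lines. Their summed level lay between 14700 and 15600 CPM (counts scaled to the size of the library) with siCtrl and between 6390 and 6560 CPM with siKMT9α in CAL-29, and between 10200 and 10700 CPM and between 6390 and 6600 CPM in 5637 cells. At an adjusted p below 0.05, 7 of the 8 fell in CAL-29 cells and all 8 in 5637 cells, against 35.2% and 35.6% of all genes. The keratin KRT7 rose in CAL-29 cells (log2 fold change 0.28 ± 0.055) and fell in 5637 cells (-0.96 ± 0.033). Of 5 urothelial markers, 5 passed the filter in CAL-29 and 4 in 5637 cells. Their sum fell from between 611 and 619 CPM to between 435 and 440 CPM in CAL-29 cells. In 5637 cells, it rose from between 167 and 169 CPM to between 181 and 185 CPM. TP63 went the same ways (-0.70 ± 0.054 and 0.36 ± 0.033) and was the only one called up in 5637 cells. At an adjusted p below 0.05, UPK1B (-0.52 ± 0.051 and -2.24 ± 0.18) and UPK2 (-0.39 ± 0.115 and -2.03 ± 0.44) fell in both lines. UPK2 was low in 5637 cells, at 0.645 CPM with siCtrl. GATA3 fell in 5637 cells (-0.84 ± 0.060) and was at -0.05 ± 0.048 in CAL-29 cells. Markers of hepatocytes, adipocytes and leukocytes summed to at most 0.469 CPM per list in any library and none passed the filter. The 2 endothelial markers summed to at most 1.17 CPM, and VWF, the only one of them above the filter, was at -0.78 ± 0.31 in CAL-29 (adjusted p = 0.0313) and 0.77 ± 0.40 in 5637 cells (adjusted p = 0.0884). These marker levels moved with the siRNA, and their part in the results below was not tested.

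With siKMT9α, some of the synthesis genes rose and others fell, as also held over all genes tested. INSIG1, STARD4, SC5D, HMGCS1, HSD17B7 and FADS2 fell in both lines, and ELOVL6, FASN, LSS and EBP rose in both lines. At an unadjusted p below 1e-06, the threshold of the study, 4 of the 32 genes thus rose and 6 fell in both lines, and none moved in opposite directions. The study does not name its edgeR test, and the likelihood ratio test called more genes at 1e-06 than the test used here. Of all 13674 genes tested in both lines, 8.45% rose in both, 8.49% fell in both and 1.76% moved in opposite directions. In CAL-29 cells, 6 of the 32 genes rose and 6 fell at this threshold. Of the 14673 genes tested, 15.0% rose and 15.0% fell. In 5637 cells, 11 rose and 11 fell, where 18.0% of all 14335 genes rose and 17.6% fell. The median log2 fold change of the 32 genes was 0.13 in CAL-29 and 0.06 in 5637 cells, against -0.016 and -0.0055 over all genes. The extremes were wide, from -1.78 to 2.51 in CAL-29 and from -1.56 to 1.31 in 5637 cells. In bulk RNA, a change in the share of cells that express a gene and a change in RNA per cell cannot be told apart.

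**Figure D1:**
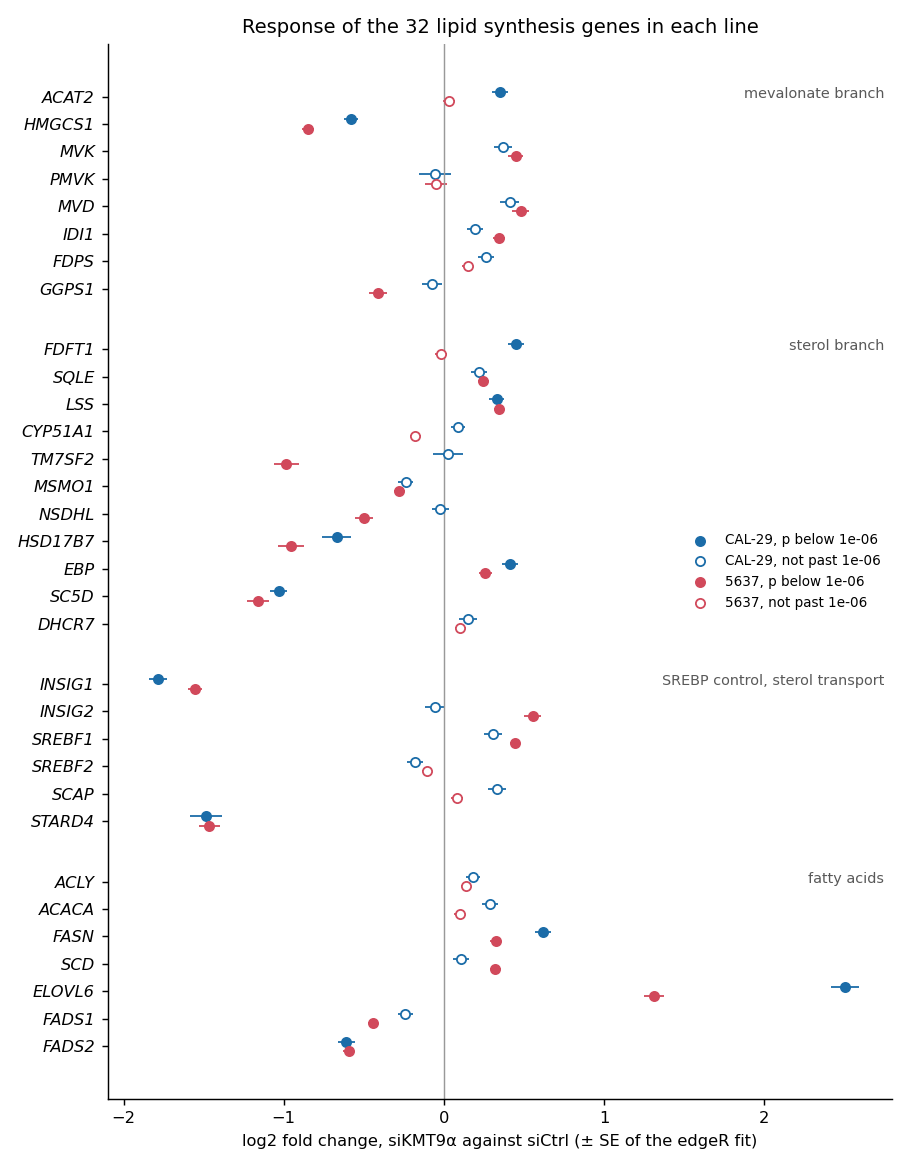
Log2 fold change (siKMT9α against siCtrl) of each of the 32 genes, by branch of the pathway, in CAL-29 (blue) and 5637 (red) cells, with bars for the SE of the edgeR fit (n = 3 per group) and filled points for genes past p of 1e-06. INSIG1 and STARD4 lie below -1.4 in both lines, ELOVL6 lies above 1.3 in both, and TM7SF2 is low in 5637 cells alone.

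At an adjusted p below 0.05, the looser of the thresholds used, 16 of the 32 genes rose and 9 fell in CAL-29 cells, where 34.3% of all genes rose and 35.2% fell. In 5637 cells, 15 rose and 13 fell, against 35.1% and 35.6% of all genes. At this threshold 13 genes rose in both lines, 9 fell in both and none was called in opposite directions, against 22.6%, 21.7% and 9.89% of all genes tested in both. Only PMVK, phosphomevalonate kinase, was called in neither line. The siCtrl and siKMT9α libraries did not overlap for 26 of 32 genes in CAL-29 cells, where 72.3% of all genes did not overlap, and for 29 of 32 in 5637 cells, where the share was 72.4%. The number of genes past 1e-06 in CAL-29 cells depended on single libraries. The 6 rises became 12 without siCtrl replicate 1, which differed more from its replicates than any other library did. They became 3 without siCtrl replicate 2, 3 without siKMT9α replicate 1 or 2, and 2 without siKMT9α replicate 3.

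In the mevalonate branch, HMGCS1 fell in both lines, and no other gene of the branch passed 1e-06 in both. HMGCS1, which condenses acetyl-CoA and acetoacetyl-CoA into HMG-CoA (GRCh37 chr5:43287572-43313614, minus strand), was at 238, 224 and 233 CPM with siCtrl and at 156, 153 and 156 CPM with siKMT9α in CAL-29 cells. In 5637 cells, its levels were 161, 161 and 163 CPM with siCtrl and 93.3, 86.1 and 89.7 CPM with siKMT9α. Every knockdown library lay below every control library of its line. The log2 fold change was -0.58 ± 0.045 (SE, adjusted p = 3.83e-10) in CAL-29 and -0.85 ± 0.036 (adjusted p = 2.73e-18) in 5637 cells. Exons of an unnamed gene on the other strand overlap 46.7% of the exon bases of HMGCS1, and since the strand setting of the counting is not stated, reads of the 2 genes cannot be told apart.

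The kinase MVK and the decarboxylase MVD, which act later in the branch, rose past 1e-06 in 5637 cells only, by a log2 fold change of 0.45 ± 0.048 and 0.48 ± 0.051. Their values in CAL-29 cells were close to these, at 0.37 ± 0.057 and 0.41 ± 0.060, and both passed the adjusted threshold there. MVK and MVD also passed 1e-06 in CAL-29 cells in the model of all 12 libraries, with scaling by total counts, without a filter, with DESeq2, with the likelihood ratio test and without siCtrl replicate 1. IDI1, the isopentenyl diphosphate isomerase, rose by 0.34 ± 0.039 in 5637 cells and stood at 0.19 ± 0.049 in CAL-29 cells. FDPS, farnesyl diphosphate synthase, passed the adjusted threshold in both lines, with 0.26 ± 0.050 and 0.15 ± 0.036. The count of FDPS is uncertain because near-identical pseudogene copies exist and because an antisense gene, RUSC1-AS1, overlaps 41.4% of its exon bases.

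GGPS1, which diverts farnesyl diphosphate to geranylgeranyl diphosphate for protein prenylation, fell by 0.41 on the log2 scale (SE 0.057) in 5637 cells and was at -0.08 ± 0.062 in CAL-29 cells. A gene on the same strand overlaps 26.1% of its exon bases. ACAT2, which makes acetoacetyl-CoA, showed the reverse order, with 0.35 ± 0.048 past 1e-06 in CAL-29 and 0.03 ± 0.038 in 5637 cells. Genes on the other strand, among them TCP1, overlap 36.3% of the exon bases of ACAT2. PMVK was at -0.05 ± 0.10 and -0.05 ± 0.068. In this branch of 8 genes, 1 rose and 1 fell past 1e-06 in CAL-29, and 3 rose and 2 fell in 5637 cells. Over all genes, 15.0% rose and 15.0% fell in CAL-29, and 18.0% rose and 17.6% fell in 5637 cells.

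The sterol branch also divided by enzyme. SC5D, the desaturase that turns lathosterol into the precursor of cholesterol (chr11:121163390-121184119, plus strand), had the deepest fall of the enzymes in the branch. It was at 96.4, 88.4 and 90.3 CPM with siCtrl and at 46.0, 45.3 and 43.2 CPM with siKMT9α in CAL-29 cells. In 5637 cells, the control libraries stood at 30.5, 34.0 and 30.6 CPM and the knockdown libraries at 13.9, 15.6 and 13.1 CPM. Thus about 0.489 and 0.447 of the control level remained, with log2 fold changes of -1.03 ± 0.053 (adjusted p = 4.31e-13) and -1.16 ± 0.069 (adjusted p = 5.93e-15), and no library of one group reached the other.

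HSD17B7, a reductase that removes the methyl groups of lanosterol together with NSDHL and MSMO1, fell as well. Its levels were 16.2, 15.9 and 15.7 CPM with siCtrl and 9.38, 10.6 and 10.1 CPM with siKMT9α in CAL-29, and 17.4, 19.6 and 18.7 CPM against 8.77, 9.75 and 10.2 CPM in 5637 cells. The log2 fold change was -0.67 ± 0.091 (adjusted p = 1.41e-06) in CAL-29 and -0.95 ± 0.080 (adjusted p = 1.23e-11) in 5637 cells. The groups did not overlap in either line. In CAL-29 cells, the call at 1e-06 was lost in 7 of 16 alternatives, among them each single library left out other than siCtrl replicate 1, with values from -0.71 to -0.59. A near-identical pseudogene copy of HSD17B7 exists, so its counts are uncertain.

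Of its partners, MSMO1 fell by 0.28 on the log2 scale (SE 0.035) in 5637 cells and was at -0.24 ± 0.046 in CAL-29 cells, where only the adjusted threshold was passed. NSDHL fell in 5637 cells, by 0.50 on the log2 scale (SE 0.058), and was at -0.02 ± 0.053 in CAL-29 cells.

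LSS, lanosterol synthase, which closes the sterol rings, went the other way. In CAL-29 cells, LSS was at 72.4, 72.4 and 70.5 CPM with siCtrl and at 89.8, 91.3 and 89.6 CPM with siKMT9α. In 5637 cells, the values were 146, 145 and 143 CPM and 188, 179 and 184 CPM. All knockdown libraries lay above the controls, and the rise was 1.26-fold in CAL-29 cells (log2 fold change 0.33 ± 0.047, adjusted p = 2.69e-06) and 1.27-fold in 5637 cells (0.34 ± 0.033, adjusted p = 3.12e-10). In CAL-29 cells, LSS lost the call at 1e-06 in 8 of 19 alternatives, among them each single library left out other than siCtrl replicate 1, with values between 0.30 and 0.43.

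EBP, the sterol isomerase that acts before SC5D, was at 53.8, 51.7 and 51.4 CPM with siCtrl and at 70.0, 69.6 and 69.0 CPM with siKMT9α in CAL-29 cells. In 5637 cells, its levels were 66.1, 70.7 and 68.9 CPM against 79.6, 81.5 and 84.6 CPM. The groups were again apart, with log2 fold changes of 0.41 ± 0.050 (adjusted p = 3.42e-07) and 0.26 ± 0.041 (adjusted p = 2.29e-06). A gene on the same strand overlaps 57.1% of the exon bases of EBP, so reads of the 2 genes cannot be told apart. The rise of EBP was the least secure of those called in both lines, since its call at 1e-06 was lost in 5 of 16 alternatives in CAL-29 and in 9 of 16 in 5637 cells, though its direction held in each. The libraries whose omission ended it were siCtrl replicate 2 and siKMT9α replicates 1, 2 and 3 in CAL-29, and siCtrl replicates 1 and 3 and siKMT9α replicates 2 and 3 in 5637 cells.

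TM7SF2, a sterol reductase that acts after lanosterol demethylation (chr11:64879317-64883856, plus strand), differed most between the lines in this branch. In 5637 cells, its levels were 19.2, 18.4 and 20.8 CPM with siCtrl and 10.2, 9.01 and 10.3 CPM with siKMT9α. In CAL-29 cells, it was at 16.0, 16.6 and 13.99 CPM with siCtrl and at 13.9, 17.2 and 16.2 CPM with siKMT9α. The groups were apart in 5637 cells (log2 fold change -0.99 ± 0.079, adjusted p = 4.59e-12) and overlapped in CAL-29 cells (0.03 ± 0.096, adjusted p = 0.824).

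FDFT1, squalene synthase, had the highest rise of the branch in CAL-29 cells, 1.36-fold (log2 fold change 0.45 ± 0.049), and was at -0.02 ± 0.035 in 5637 cells. SQLE, squalene epoxidase, rose by 0.25 ± 0.033 in 5637 cells and was at 0.22 ± 0.051 in CAL-29 cells, past the adjusted threshold only. CYP51A1, which removes a methyl group from lanosterol, was at 0.09 ± 0.045 in CAL-29 cells and, past the adjusted threshold, at -0.18 ± 0.035 in 5637 cells. Genes on the same strand overlap 90.1% of its exon bases. DHCR7, which catalyses the final step of one route to cholesterol, was at 0.15 ± 0.058 and 0.10 ± 0.035, past the adjusted threshold in both lines. Over the branch of 11 genes, 3 rose and 2 fell past 1e-06 in CAL-29, and 3 rose and 5 fell in 5637 cells. The shares of all genes that rose and fell were 15.0% and 15.0% in CAL-29, and 18.0% and 17.6% in 5637 cells.

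Among the genes of SREBP control and sterol transport, INSIG1 fell the most in both lines, followed by STARD4. INSIG1 (chr7:155089486-155101945, plus strand) encodes a membrane protein that retains SCAP and SREBP in the endoplasmic reticulum, and it is itself a well-known SREBP target. It was at 111, 100.3 and 103 CPM with siCtrl and at 30.2, 30.4 and 30.7 CPM with siKMT9α in CAL-29 cells. In 5637 cells, its levels were 119.6, 112 and 120.4 CPM with siCtrl and 41.3, 38.5 and 40.0 CPM with siKMT9α. The 3 knockdown libraries of CAL-29 cells differed by less than 1 CPM, and the groups were far apart in both lines. The log2 fold change was -1.78 ± 0.054 (adjusted p = 9.65e-17) in CAL-29 and -1.56 ± 0.043 (adjusted p = 8.19e-23) in 5637 cells, so that 0.290 and 0.340 of the control level remained. Each of the 3 transcripts of INSIG1 in the tables gave a value between -1.87 and -1.79 in CAL-29 and between -1.62 and -1.56 in 5637 cells.

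INSIG2, the second gene of the pair, did not follow it. In 5637 cells, INSIG2 was at 33.1, 32.7 and 30.6 CPM with siCtrl and at 45.8, 50.5 and 45.2 CPM with siKMT9α. In CAL-29 cells, it was at 31.5, 33.5 and 33.5 CPM with siCtrl and at 32.1, 32.3 and 30.5 CPM with siKMT9α. INSIG2 thus rose 1.47-fold in 5637 cells (log2 fold change 0.55 ± 0.053, adjusted p = 2.17e-10), and the groups overlapped in CAL-29 cells (-0.05 ± 0.062, adjusted p = 0.454).

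STARD4, a soluble carrier that moves cholesterol between membranes (chr5:110831731-110848288, minus strand), was at 18.6, 17.9 and 17.0 CPM with siCtrl and at 6.62, 5.67 and 6.88 CPM with siKMT9α in CAL-29 cells. In 5637 cells, STARD4 was at 41.2, 42.6 and 39.4 CPM with siCtrl and at 15.7, 13.3 and 15.6 CPM with siKMT9α. The lines started from different levels and lost nearly the same share. STARD4 had log2 fold changes of -1.49 ± 0.10 (adjusted p = 4.27e-11) in CAL-29 and -1.46 ± 0.064 (adjusted p = 3.95e-18) in 5637 cells.

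The transcription factors themselves changed less. SREBF1, which encodes the SREBP most tied to fatty acid synthesis, rose by 0.44 ± 0.033 in 5637 cells, and in CAL-29 cells it passed the adjusted threshold with 0.31 ± 0.058. SREBF2, which encodes the SREBP most tied to cholesterol synthesis, passed the adjusted threshold only, with -0.18 ± 0.050 in CAL-29 and -0.10 ± 0.031 in 5637 cells. SCAP was at 0.33 ± 0.056 in CAL-29 cells, past the adjusted threshold, and at 0.08 ± 0.037 in 5637 cells, where it missed it (adjusted p = 0.0514). In this group of 6 genes, none rose and 2 fell past 1e-06 in CAL-29, and 2 rose and 2 fell in 5637 cells. The shares of all genes that rose and fell were 15.0% and 15.0% in CAL-29, and 18.0% and 17.6% in 5637 cells.

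The fatty acid genes held the sharpest rise of the 32. ELOVL6, which lengthens saturated and monounsaturated fatty acids of the length that FASN makes (chr4:110967002-111120355, minus strand), was at 5.47, 6.25 and 5.97 CPM with siCtrl and at 34.9, 34.2 and 31.5 CPM with siKMT9α in CAL-29 cells. In 5637 cells, its levels were 13.2, 14.1 and 14.5 CPM with siCtrl and 35.0, 33.3 and 35.8 CPM with siKMT9α. After knockdown the libraries of both lines lay between 31.5 and 35.8 CPM, although the control levels were far apart. ELOVL6 rose 5.68-fold in CAL-29 cells (log2 fold change 2.51 ± 0.088, adjusted p = 9.24e-16) and 2.49-fold in 5637 cells (1.31 ± 0.062, adjusted p = 2.69e-17).

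FASN, the fatty acid synthase, was at 429, 389 and 397 CPM with siCtrl and at 622, 609.6 and 630.4 CPM with siKMT9α in CAL-29 cells. In 5637 cells, its levels were 633, 634 and 654 CPM with siCtrl and 849, 765 and 789 CPM with siKMT9α. All knockdown libraries were above the controls of their line. FASN had a log2 fold change of 0.62 ± 0.050 (adjusted p = 6.06e-10) in CAL-29 and 0.32 ± 0.034 (adjusted p = 1.46e-09) in 5637 cells.

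Upstream of FASN, ACLY, which makes cytosolic acetyl-CoA, was at 0.18 ± 0.044 and 0.13 ± 0.031, and ACACA, which makes malonyl-CoA, was at 0.29 ± 0.050 and 0.10 ± 0.035. Both passed the adjusted threshold, but not 1e-06, in both lines. SCD, which introduces the first double bond, rose by 0.32 ± 0.033 in 5637 cells and was at 0.11 ± 0.050 in CAL-29 cells (adjusted p = 0.0688).

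The desaturases of polyunsaturated fatty acids fell. FADS2 (chr11:61560452-61634826, plus strand) was at 70.9, 67.3 and 66.6 CPM with siCtrl and at 44.4, 42.8 and 47.2 CPM with siKMT9α in CAL-29 cells. In 5637 cells, FADS2 was at 342, 366 and 364 CPM with siCtrl and at 236, 235 and 240.0 CPM with siKMT9α. The groups were apart in both lines, and 0.656 and 0.662 of the control level remained, with log2 fold changes of -0.61 ± 0.055 (adjusted p = 3.79e-09) and -0.60 ± 0.033 (adjusted p = 1.28e-15). Its neighbour FADS1, which acts later in the same route, fell by 0.44 on the log2 scale (SE 0.032) in 5637 cells and was at -0.24 ± 0.046 in CAL-29 cells, past the adjusted threshold only. The exons of the 2 neighbours overlap by 4.79% of the exon bases of FADS2. Over the 7 fatty acid genes, 2 rose and 1 fell past 1e-06 in CAL-29, and 3 rose and 2 fell in 5637 cells. The shares of all genes that rose and fell were 15.0% and 15.0% in CAL-29, and 18.0% and 17.6% in 5637 cells.

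**Figure D2:**
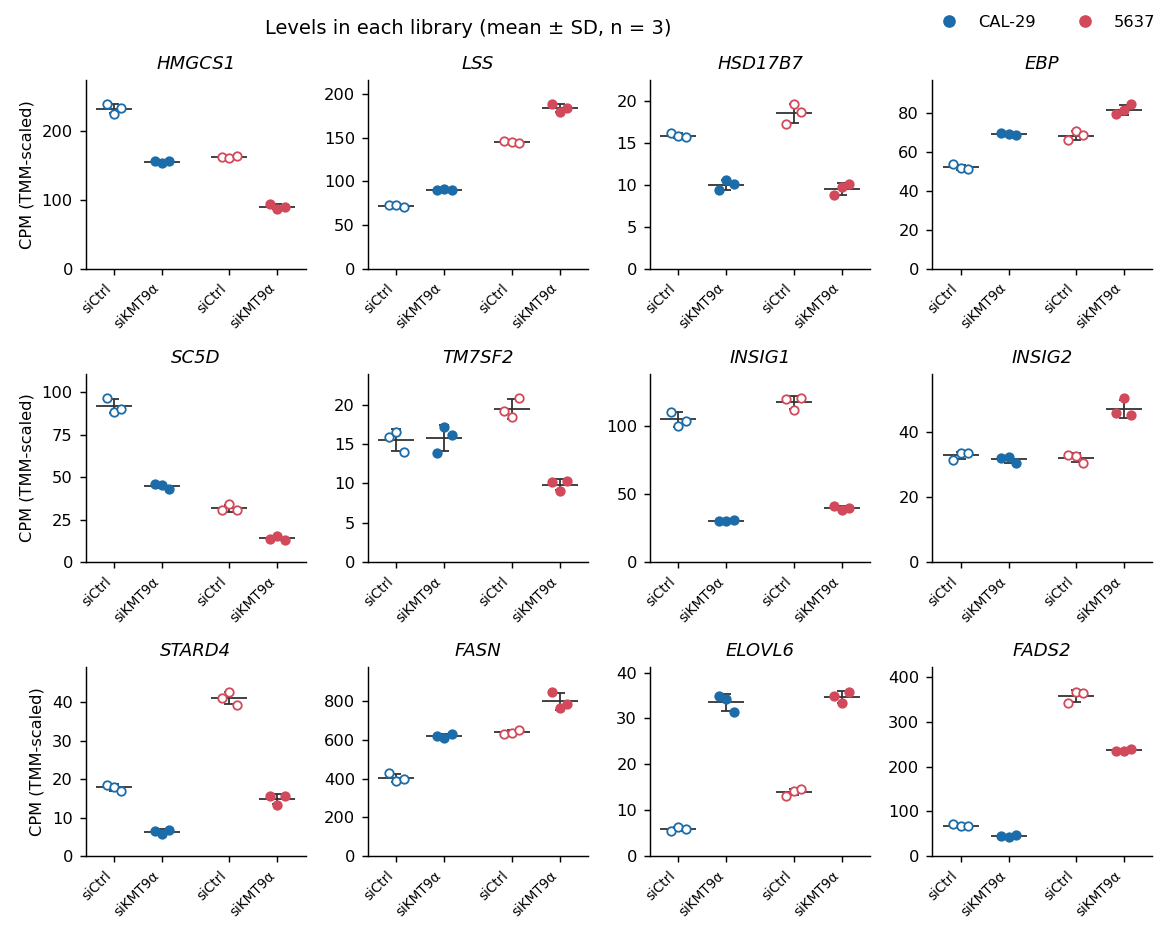
CPM (TMM-scaled, linear axis from 0) of 12 genes in each library, with open points for siCtrl and filled points for siKMT9α, and with mean and SD bars (n = 3) in CAL-29 (blue) and 5637 (red) cells. The groups are apart in both lines except for TM7SF2 and INSIG2, whose CAL-29 libraries overlap, and ELOVL6 reaches 31.5 to 35.8 CPM in both lines after knockdown.

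Whether the lines responded differently was examined by the interaction of cell line and siRNA in 1 fit of the 12 libraries. Of the 32 genes, 17 differed at an adjusted p below 0.05, where 50.4% of all 15395 genes tested did. A difference of at least 0.58 on the log2 scale, or about 1.5-fold, was found for 3 of the 32, where 21.2% of all genes had one. ELOVL6 rose less in 5637 than in CAL-29 cells, with a difference of responses (5637 minus CAL-29) of -1.21 ± 0.11 (SE, adjusted p = 1.4e-10). The difference was -1.03 ± 0.13 (adjusted p = 9.46e-08) for TM7SF2 and 0.59 ± 0.081 (adjusted p = 5.59e-07) for INSIG2.

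For other genes, the difference was close to 0. It was 0.0056 ± 0.11 for STARD4, -0.0022 ± 0.063 for FADS2 and -0.0034 ± 0.055 for LSS, and none of these passed the threshold. For SC5D, it was -0.15 ± 0.087 (adjusted p = 0.164), but it passed with scaling by total counts (-0.26, adjusted p = 0.0116) and without siKMT9α replicate 2 of 5637 cells (-0.22, adjusted p = 0.0452). The fall of INSIG1 was slightly deeper in CAL-29 cells, by 0.21 ± 0.069 (adjusted p = 0.0115), and that of HMGCS1 was deeper in 5637 cells, with a difference of -0.29 ± 0.057 (adjusted p = 1.13e-04).

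**Figure D3:**
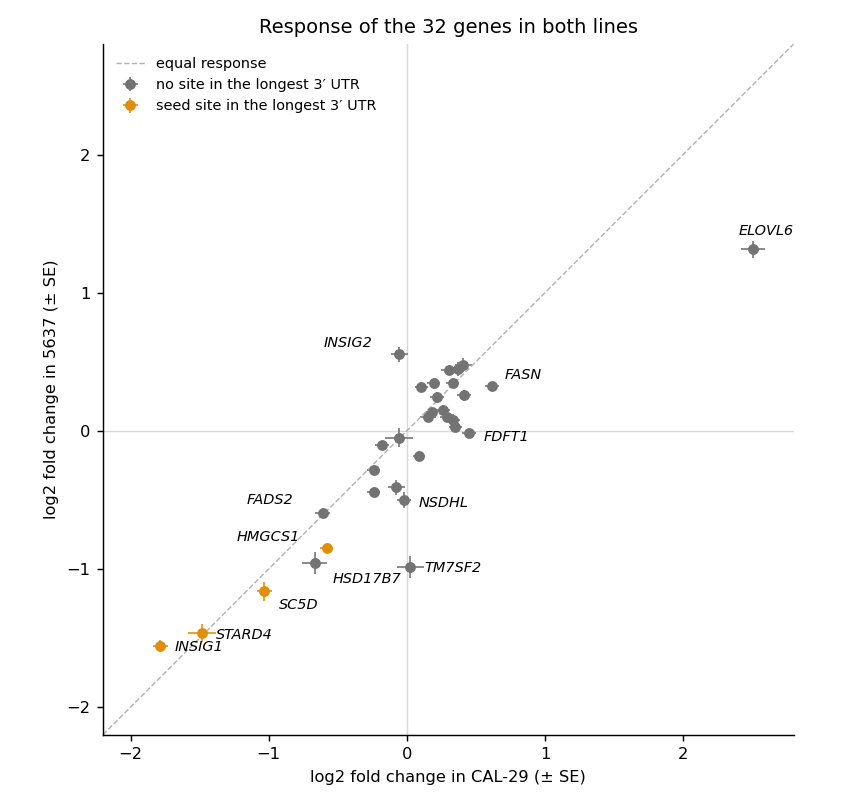
Log2 fold change in 5637 cells (vertical axis) against CAL-29 cells (horizontal axis) for the 32 genes, with SE bars, a dashed line of equal response, and orange points for the 4 genes with a seed site of the siRNA in the longest 3′ UTR. STARD4, FADS2 and LSS lie on the line, ELOVL6 and TM7SF2 lie below it, INSIG2 lies above it, and the 4 orange points lie below -0.5 on both axes.

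The lines also differed before knockdown. In siCtrl libraries, 21 of the 32 genes were higher in 5637 and 9 were higher in CAL-29 cells at an adjusted p below 0.05, where 85.4% of all genes differed in either direction. On a scale of CPM per kilobase of transcript, which allows levels of different genes to be compared, SCD was the most abundant of the genes in CAL-29 cells, at 286 ± 12 (SD, n = 3), ahead of MSMO1 at 86.6 ± 2.8 and FDFT1 at 83.5 ± 2.7. MSMO1 and FDFT1 differed by little more than the SD of either. In 5637 cells, ACLY led at 121 ± 1.2, followed by FADS2 at 118 ± 4.1 and FDPS at 112 ± 3.7. ACLY and FADS2 differed by less than the SD of FADS2, and FDPS lay below FADS2 by more than either SD. ELOVL6 was the lowest in both lines, at 0.874 ± 0.061 and 2.17 ± 0.10.

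FADS2 had the widest gap between the lines, being higher in 5637 cells by 2.46 ± 0.044 on the log2 scale (SE, adjusted p = 6.38e-28). SCD was lower in 5637 cells, with a log2 difference of -1.82 ± 0.044 (adjusted p = 8.05e-25), and so was SC5D, with -1.47 ± 0.056 (adjusted p = 4.45e-20). ELOVL6 and STARD4 were higher in 5637 cells, by 1.31 ± 0.086 (adjusted p = 1.96e-14) and 1.27 ± 0.072 (adjusted p = 5.72e-16). GGPS1 and INSIG2 did not pass the threshold, with differences of 0.07 ± 0.059 and 0.03 ± 0.058.

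**Figure D4:**
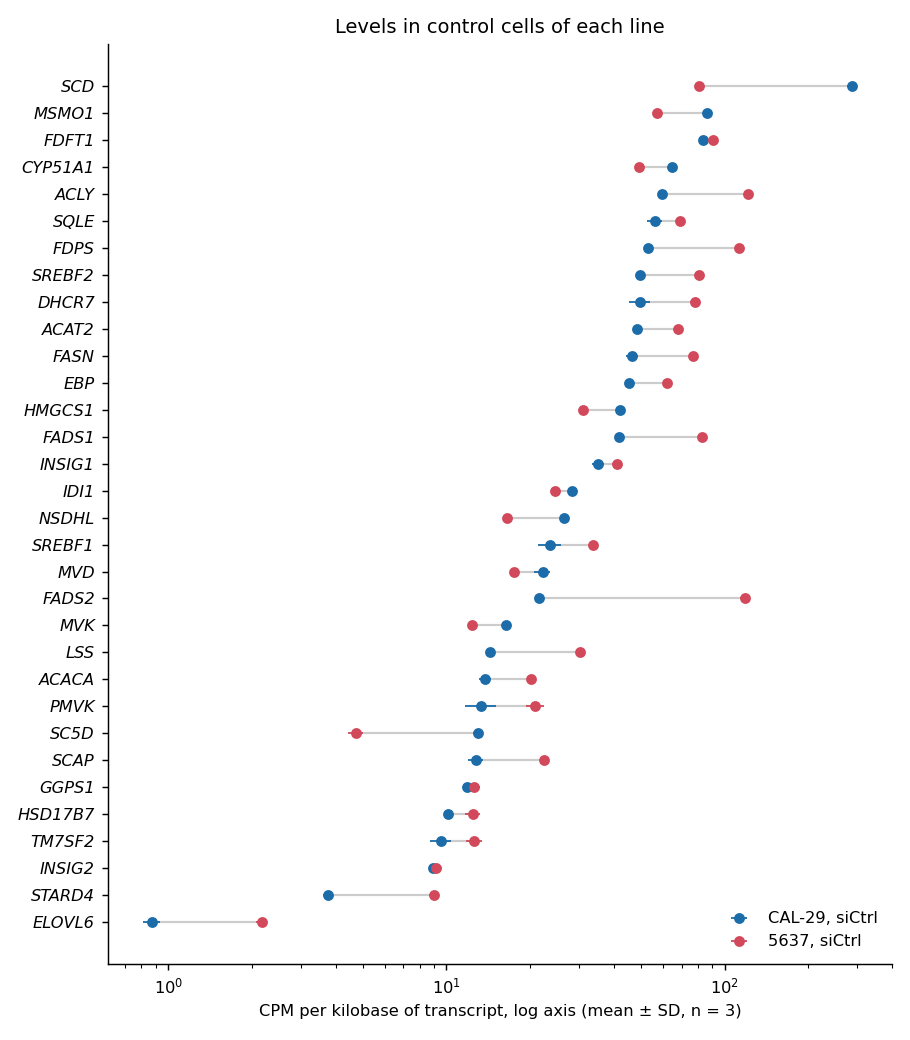
CPM per kilobase of transcript (log axis) of the 32 genes in siCtrl libraries of CAL-29 (blue) and 5637 (red) cells, ordered by the level in CAL-29 cells, with SD bars (n = 3) and grey lines that join the 2 lines. SCD is highest in CAL-29 cells at 286, ELOVL6 is lowest in both lines, and FADS2 and SCD have the longest joining lines.

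Sequence features that the choice of genes did not use were then compared. An siRNA can pair with the 3′ UTRs of other mRNAs through its seed, bases 2 to 8 of the guide strand. The site that siKMT9α#1 matches lies in coding exon 3 of N6AMT1 (GRCh37 chr21:30254500-30254524, minus strand), and it is shown because its capitals mark the heptamer complementary to the seed.
N6AMT1 target: acgctgtaacaaagttcACATTCAa
The second siRNA of the study against KMT9α is shifted by 1 base. Its seed would differ, but its heptamer would share all but 1 base with this one. The INSIG1 window below would hold the full heptamer of that siRNA as well. Of the 32 genes, 4 carried ACATTCA in their longest annotated 3′ UTR, namely HMGCS1 with 2 sites and SC5D, INSIG1 and STARD4 with 1 site each. These windows of 30 bases are printed 5′ to 3′ on the strand of the gene, with the heptamer in capitals, since all 4 genes are among the 6 that fell past 1e-06 in both lines.
HMGCS1 (chr5:43290498-43290527): agaaaacatggtACATTCAggagctgtgaa
HMGCS1 (chr5:43289742-43289771): tgacttcatttaACATTCActgatgtagat
SC5D (chr11:121179222-121179251): gatttaacaaatACATTCAtaaggaaatgt
INSIG1 (chr7:155101860-155101889): ctagtgaggttcACATTCAtactaagtttt
STARD4 (chr5:110835554-110835583): gaggcaaaatACATTCAaacttgtagtact

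For the 4 genes with the heptamer, the log2 fold change had a median of -1.26 in CAL-29 and -1.31 in 5637 cells, against 0.19 and 0.10 for the other 28 genes. Over all genes with an annotated 3′ UTR, 16.6% carried the heptamer in CAL-29 and 16.9% in 5637 cells, so 12.5% of the 32 is no higher share. The median over all genes was -0.24 with and 0.04 without the heptamer in CAL-29, and -0.28 and 0.03 in 5637 cells. Of all genes with the heptamer, 29% fell past 1e-06 in CAL-29 and 37.7% in 5637 cells, against 13.2% and 15% of those without. HSD17B7 and FADS2 fell in both lines without the heptamer. They were the 7.14% of the 28 genes without it that fell past 1e-06 in CAL-29 cells, where in 5637 cells this share was 25%. The longest 3′ UTR has 3661 bases in HMGCS1, 5898 in SC5D, 1965 in INSIG1 and 3853 in STARD4. The longest 3′ UTRs without the heptamer were those of ELOVL6 with 5492 bases, SCD with 3893 and SREBF2 with 3537. All other genes without it had at most 3127 bases (SCAP). Length was not matched between genes with and without the heptamer, and its part was not tested. In the shortest annotated 3′ UTR, the heptamer was present in HMGCS1, SC5D and MVK, but not in INSIG1 or STARD4. With these 3 genes, the median was -0.58 in CAL-29 and -0.85 in 5637 cells, and MVK rose in both lines past the adjusted threshold. The part of the seed in these falls was not tested.

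Promoters, from 250 bases before to 50 bases after the start, were taken from RefSeq (GRCh38.p14) and searched on both strands for the sterol regulatory element TCACNCCAC and for CCAAT, the box bound by NF-Y. There were 40 promoters for 28 of the 32 genes, and none for ACAT2, FDFT1, SQLE and FASN. Only exact matches in this window were counted, so other forms of the element and more distant ones would be missed. The element was found in 1 of them, that of SREBF2, which is 2.5% against 1.13% of all 35116 promoters. CCAAT was found in 25 of 40, which is 62.5% against 34.6% of all promoters. Promoters and not genes were counted, and some overlap, as those of ACLY and of SC5D do, so the same box can count more than once. Promoters of both falling and rising genes held it, among them those of INSIG1, STARD4, SC5D, LSS and EBP. The promoters of SREBF2, of INSIG1 as the gene that fell most and of ELOVL6 as the gene that rose most are shown with the matches in capitals, where ATTGG is CCAAT on the other strand.
SREBF2 (chr22:41832855-41833154, plus strand): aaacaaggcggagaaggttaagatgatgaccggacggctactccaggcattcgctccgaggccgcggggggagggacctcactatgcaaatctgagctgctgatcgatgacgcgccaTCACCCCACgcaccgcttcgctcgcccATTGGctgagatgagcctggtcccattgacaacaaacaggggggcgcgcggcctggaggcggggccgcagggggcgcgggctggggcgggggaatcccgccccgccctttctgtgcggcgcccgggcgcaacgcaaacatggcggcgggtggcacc
INSIG1 (chr7:155297628-155297927, plus strand): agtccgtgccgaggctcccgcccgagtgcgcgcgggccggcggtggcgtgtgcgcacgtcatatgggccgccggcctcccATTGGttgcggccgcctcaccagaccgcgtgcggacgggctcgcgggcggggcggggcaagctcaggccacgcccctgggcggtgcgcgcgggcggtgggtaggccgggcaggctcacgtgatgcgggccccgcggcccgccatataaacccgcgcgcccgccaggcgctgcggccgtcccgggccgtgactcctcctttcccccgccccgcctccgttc
ELOVL6 (chr4:110198566-110198865, minus strand): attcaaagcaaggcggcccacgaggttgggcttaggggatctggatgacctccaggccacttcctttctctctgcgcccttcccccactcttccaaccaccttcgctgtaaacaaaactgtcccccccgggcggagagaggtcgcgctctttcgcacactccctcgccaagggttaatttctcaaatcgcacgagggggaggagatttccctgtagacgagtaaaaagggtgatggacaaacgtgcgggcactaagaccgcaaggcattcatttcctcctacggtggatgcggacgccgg
The ELOVL6 promoter holds neither motif.

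Genes of the same pathways outside the 32 were counted as 2 further lists. Of 11 genes for SREBP processing, degradation and partner factors, 1 rose and 2 fell past 1e-06 in CAL-29, and 2 rose and 2 fell in 5637 cells. NFYA, NFYB, NFYC, RNF139 and ACSL3 were named after their values were seen. The subunits of NF-Y did not move one way. NFYC rose in both lines, by a log2 fold change of 0.37 ± 0.051 and 0.41 ± 0.049. NFYB was at 0.26 ± 0.058 in CAL-29 cells, past the adjusted threshold only, and rose past 1e-06 in 5637 cells (0.51 ± 0.058). NFYA fell past 1e-06 in CAL-29 cells (-0.41 ± 0.057) and passed the adjusted threshold only in 5637 cells (-0.19 ± 0.046). RNF139, a ubiquitin ligase of the endoplasmic reticulum, fell in both, with -1.09 ± 0.063 and -0.82 ± 0.051. Of 15 other lipid synthesis genes, 4 rose and 3 fell in CAL-29, and 3 rose and 5 fell in 5637 cells. For both lists, the shares of all genes that rose and fell were 15.0% and 15.0% in CAL-29, and 18.0% and 17.6% in 5637 cells. ELOVL5, which elongates the products of FADS2, was the only one of these 26 genes past 1e-06 with a log2 change of at least 1 in both lines. It was at 265, 259 and 247 CPM with siCtrl and at 63.1, 60.0 and 53.8 CPM with siKMT9α in CAL-29, and at 128, 128 and 127 CPM against 27.2, 25.3 and 24.2 CPM in 5637 cells. ELOVL5 had a log2 fold change of -2.12 ± 0.056 (adjusted p = 1.36e-17) and -2.32 ± 0.045 (adjusted p = 3.67e-26). ACSL3, which activates long-chain fatty acids, rose in both lines, by 0.90 ± 0.051 and 0.85 ± 0.033.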

How the data were processed

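The 12 libraries were grouped by cell line and siRNA from the sample labels, which do not name the siRNA against KMT9α. The authors aligned reads to hg19 (the assembly GRCh37) with STAR, used HOMER to count reads per RefSeq transcript and tested the counts with edgeR. The deposited tables hold the authors' estimated counts in steps of 0.5, without normalization, for 37400 transcripts. The authors' p-values, adjusted p-values and log2 fold changes in the same tables were not used.

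A single transcript per symbol, that with the highest count in the line, entered the tests after rounding. The quasi-likelihood F test of edgeR 4.0.16 (R 4.3.3) was run within each line after filterByExpr and TMM scaling, with siRNA as the only term. Calls used p below 1e-06 or a Benjamini-Hochberg adjusted p below 0.05 over all genes tested. An SE is the log2 fold change divided by the square root of F. Differences between lines came from 1 fit of all 12 libraries. Levels per kilobase used the length of the MANE Select transcript in GENCODE. With 3 against 3 libraries, an exact permutation test cannot go below 0.1. Replicates differed by more than sampling noise over all genes (chi-square per degree of freedom from 2.22 to 11.7). The highest values, 7.84 and 11.7, were those of siCtrl replicate 1 of CAL-29 cells against its replicates. All other pairs lay between 2.22 and 3.88. The counting error of a member in a library ranged from 0.451% to 8.14% (ELOVL6 with siCtrl in CAL-29 cells), against biological coefficients of variation of 5.09% and 3.34% over all genes, so depth also limits precision for the lowest members.

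Per-library values were given for genes past 1e-06 in both lines and for genes whose responses differed by at least 0.58 (log2). Other pathway genes were to be named past 1e-06 with a log2 change of at least 1 in both lines, and NFYA, NFYB, NFYC, RNF139 and ACSL3 were named outside that rule. The gene listed as C14orf1 appears in the tables as ERG28. The genes, lists and tests were chosen with earlier results of these data known. The tests were checked on simulated counts. Alternatives were other scalings, filters, tests (DESeq2 1.42.0, likelihood ratio), a replicate block, summed or single transcripts, other 3′ UTRs and promoter windows, and each library left out. The MANE Select 3′ UTR was added after seeing the data.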

Additional observations from a re-analysis of the deposited data

Results flagged for a closer look

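The response to KMT9α knockdown differed between the lines, by the interaction term of cell line and siRNA at an adjusted p below 0.05, for 17 of the 32 genes, where 50.4% of all genes tested differed. Each value is the log2 fold change in 5637 cells minus that in CAL-29 cells.

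In the mevalonate branch, the difference was -0.34 for ACAT2, -0.29 for HMGCS1 and -0.35 for GGPS1. In the sterol branch, it was -1.03 for TM7SF2, -0.49 for NSDHL, -0.48 for FDFT1, -0.30 for HSD17B7, -0.28 for CYP51A1 and -0.17 for EBP. Among the genes of SREBP control, INSIG2 had 0.59, INSIG1 had 0.21 and SCAP had -0.27. Among the fatty acid genes, ELOVL6 had -1.21, FASN had -0.31, FADS1 had -0.22, ACACA had -0.21 and SCD had 0.20.

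The difference of HSD17B7 passed the threshold least securely. It did not pass with DESeq2 (adjusted p = 0.0646), with summed transcripts (adjusted p = 0.0562) or without one of 7 libraries, namely siCtrl replicates 2 and 3 and siKMT9α replicates 2 and 3 of CAL-29 cells and siCtrl replicates 2 and 3 and siKMT9α replicate 1 of 5637 cells, where it lay between -0.31 and -0.25. That of EBP did not pass with DESeq2 (adjusted p = 0.0552) or without siCtrl replicate 2 or siKMT9α replicate 1 of 5637 cells, where it was -0.15. With scaling by total counts, INSIG1 (0.096) and SCD (0.082) no longer passed. Dose, reagent and medium differed with the line, so their part cannot be told apart from that of the line.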

How the results depend on the processing

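HMGCS1, SC5D, INSIG1, STARD4, FASN, ELOVL6 and FADS2 kept their direction and passed 1e-06 in both lines under each alternative run, and ELOVL6, TM7SF2 and INSIG2 differed between the lines in each. The number of genes that rose past 1e-06 in CAL-29 cells, 6, was 12 without a filter, 10 with DESeq2, 11 with the likelihood ratio test, 11 in the model of all 12 libraries, 10 with scaling by total counts, 3 with summed transcripts and 2 to 12 with 1 library left out. The causes were not tested.

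Replicate numbers are those of the sample titles, while the descriptions number the siKMT9α libraries of each line 4 to 6. The deviations of libraries with the same title number correlated at -0.0134 to 0.0819, and those with unlike numbers at -0.0781 to 0.0386. These values do not settle whether the numbers pair the libraries, and the main fit used no block. With the replicate block, 12 genes rose and 8 fell past 1e-06 in CAL-29, and 11 rose and 11 fell in 5637 cells. Over all genes, calls went from 4402 to 6327 and from 5104 to 5378. Calls over all genes were also 5466 and 5468 with DESeq2, 6133 and 6286 with the likelihood ratio test and 6182 and 6350 without a filter.

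Scaling by total counts moved the share of rises among all calls from 49.8% to 59.4% in CAL-29 and from 50.6% to 42.8% in 5637 cells. The median log2 fold change of the 32 genes became 0.21 and 0.0027, and 0.015 in 5637 cells with upper quartile scaling. With 1 library left out it was 0.10 to 0.16 in CAL-29 cells.

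Values near 0 changed sign. With scaling by total counts, PMVK (0.025), GGPS1 (0.0040), NSDHL (0.059) and INSIG2 (0.026) turned positive in CAL-29 cells, ACAT2 turned to -0.022 in 5637 cells, and the difference of STARD4 turned to -0.11. With upper quartile scaling, TM7SF2 was at -0.0038 in CAL-29 and ACAT2 at -0.010 in 5637 cells. The difference of the lines turned positive for LSS with size factors (0.015), upper quartile scaling (0.0010), at least 10 counts (0.0037) and DESeq2 (0.015), and for FADS2 in the same settings (0.016, 0.0022, 0.0050 and 0.017) and with summed transcripts (0.011). With 1 library left out, it spanned -0.025 to 0.012 for LSS, -0.038 to 0.032 for FADS2 and -0.082 to 0.075 for STARD4. The log2 fold change then spanned -0.15 to 0.031 for PMVK and -0.042 to 0.11 for TM7SF2 in CAL-29, and -0.039 to 0.010 for FDFT1 in 5637 cells. None of these values passed its threshold.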
